A study of Mus musculus with 18 samples.

Results

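C/EBP factors and adipogenic genes, 8 of the 55401 identifiers in the count table, were followed across 18 RNA-seq libraries of mouse embryonic fibroblasts. They are the CCAAT/enhancer-binding protein (C/EBP) genes Cebpa, Cebpb, Cebpd and Cebpg, the nuclear receptor gene Pparg, and the lipid-handling genes Fabp4, Lpl and Cd36. The genes were taken by name, with the table's identifiers matched to mouse symbols without their version numbers, and all 8 were found and all 8 were tested in every comparison.

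Mouse embryonic fibroblasts (MEFs) are primary cells grown from minced embryos, here after removal of the head and viscera. They were transduced with a retrovirus that carried either no insert (empty vector, EV) or a constitutively active HRAS (RAS), which drives senescence in fibroblasts, and were kept under drug selection. The S6K1 series comprised 3 libraries each of wild-type (WT) EV, WT RAS and RAS-transduced S6K1 knockout (KO) cells, and the S6K1/S6K2 series 3 libraries each of WT EV, WT RAS and RAS-transduced cells lacking both S6K1 and S6K2 (double knockout, DKO). The ribosomal S6 kinases S6K1 (gene Rps6kb1) and S6K2 (gene Rps6kb2) act below mTORC1 in growth control. Kinase loss was read in RAS cells only, as EV cells of the KO and DKO genotypes were not analysed here. Per the study's methods, WT and KO cells of the S6K1 series came from littermates, whereas the DKO cells came from mothers lacking S6K2 and their controls from WT mothers, so that litter and genotype cannot be told apart in the DKO comparison. The study describes the RAS-transduced MEFs of its expression assays as 3 pairs of embryos with different mothers. The labels do not tie libraries to embryos, and p-values measure the spread between these libraries, which may be technical in part.

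In adipocyte differentiation, C/EBPβ and C/EBPδ are early factors induced by hormonal signals, and they lead to the expression of Pparg and Cebpa, which maintain one another and activate genes of the mature fat cell. C/EBPβ is also a factor of inflammatory and senescence secretomes, while C/EBPγ lacks an activation domain and partners other C/EBP and ATF proteins. FABP4 carries fatty acids inside the cell, lipoprotein lipase (LPL) releases them from circulating triglyceride, and CD36 takes them up at the cell surface. Fabp4, Lpl, Cd36, Cebpa and Cebpb are also expressed by macrophages, so none of these genes marks fat cells alone.

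Promoter windows of the RefSeq annotation (GRCm38.p6, 250 bases before to 50 after the start site) were at hand for 5 of the 8 genes, with 3 windows for Pparg. The windows of Cebpb, Cebpa, Cd36 and the most downstream Pparg start are shown because their motif matches differ. Among these windows, only that of Pparg holds the C/EBP core searched for here. Capitals mark matches on either strand to the CCAAT box, to TTGCNNAA as a C/EBP core, to TGACG as a cyclic AMP response half-site, to the TATA box letters TATAAA, to the GC box letters GGGCGG and to GAGGAA as a core of the macrophage factor PU.1.
Cebpb, chr2:167688665-167688964, plus strand: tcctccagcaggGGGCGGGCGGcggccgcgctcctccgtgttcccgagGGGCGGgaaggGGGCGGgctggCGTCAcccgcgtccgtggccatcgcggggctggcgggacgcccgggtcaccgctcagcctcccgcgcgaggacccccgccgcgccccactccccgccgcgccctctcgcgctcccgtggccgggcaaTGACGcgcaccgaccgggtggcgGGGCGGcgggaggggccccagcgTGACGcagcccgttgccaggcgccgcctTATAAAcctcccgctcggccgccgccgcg
Cebpa, chr7:35119043-35119342, plus strand: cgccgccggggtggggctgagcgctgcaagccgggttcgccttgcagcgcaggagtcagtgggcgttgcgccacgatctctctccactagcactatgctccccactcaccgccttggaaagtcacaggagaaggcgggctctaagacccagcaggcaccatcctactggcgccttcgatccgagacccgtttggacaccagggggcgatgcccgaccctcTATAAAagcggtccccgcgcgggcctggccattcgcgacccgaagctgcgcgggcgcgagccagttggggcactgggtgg
Pparg, chr6:115421816-115422115, plus strand: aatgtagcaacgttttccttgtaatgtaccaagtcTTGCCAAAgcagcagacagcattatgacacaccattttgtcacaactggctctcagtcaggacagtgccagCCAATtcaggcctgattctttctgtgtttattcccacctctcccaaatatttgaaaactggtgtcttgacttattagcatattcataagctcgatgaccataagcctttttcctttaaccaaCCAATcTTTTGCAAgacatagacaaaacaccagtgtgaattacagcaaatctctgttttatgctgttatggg
Cd36, chr5:17835847-17836146, minus strand: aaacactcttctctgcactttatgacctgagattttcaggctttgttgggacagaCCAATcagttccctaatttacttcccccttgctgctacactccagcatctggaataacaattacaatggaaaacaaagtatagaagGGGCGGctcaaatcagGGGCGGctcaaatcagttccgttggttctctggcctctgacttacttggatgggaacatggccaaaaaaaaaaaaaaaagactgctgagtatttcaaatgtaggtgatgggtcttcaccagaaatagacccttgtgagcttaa
The Cebpb window holds 3 TGACG matches, at 180, 53 and 7 bases before the start, 5 GGGCGG matches, of which the first 2 overlap, and a TATAAA after the start site. The Pparg window holds 2 CCAAT and 2 TTGCNNAA matches, with one of each within 22 bases of the start. Cd36 has 1 CCAAT and 2 GGGCGG matches, and Cebpa has a TATAAA 30 bases before the start with no other searched motif. The Cebpg window, not printed, has 2 CCAAT matches and 1 GGGCGG. The other Pparg windows, also not printed, hold no TTGCNNAA. The window from chr6:115360894 has 1 GGGCGG. That from chr6:115362099 has 1 CCAAT, 2 GGGCGG, 1 TATAAA and 1 GAGGAA, the only GAGGAA in the windows at hand. Among 32544 windows of this length, CCAAT was found in 37.4%, TTGCNNAA in 10.8%, TGACG in 20.9%, TATAAA in 13.6%, GGGCGG in 35.9% and GAGGAA in 28.1%. The matches describe the letters in these windows only.

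The libraries held 8319445 to 14402442 counts each, so that a count of 3, the most that an observed 0 allows, equals 0.208 to 0.361 CPM (counts scaled to library size, with the scaling done within each series). Mouse Hras counts rose with RAS from 61.7 to 117 CPM and from 58.8 to 98.9 CPM. Rps6kb2 was 22.2 ± 2.18 CPM in KO RAS cells and 2.83 ± 0.186 in DKO RAS cells (SD, n = 3), against 25.8 ± 2.67 in WT RAS cells of the S6K1/S6K2 series (edgeR adjusted p = 7.44e-05 for DKO). Rps6kb1 stayed well above 0, at 30.6 ± 6.73 CPM in KO and 37.4 ± 2.69 in DKO cells against 68.9 ± 6.73 and 80.5 ± 4.44 in the matching WT RAS cells (edgeR adjusted p = 0.234 and 0.00908). Which part of Rps6kb1 was deleted is not given in the sources used here, so its gene counts do not check the KO and DKO labels. All 12 fibroblast markers were above 3 counts in all 18 libraries. Of 7 adipocyte markers, 6 (Adipoq, Plin1, Cidec, Lep, Cfd and Retn) never exceeded 3 counts, Lep and Cfd had no count in any library, and the list summed to at most 0.967 CPM. Of 10 muscle markers, 6 never exceeded 3 counts, and among them Myod1 and Myf5 had no count anywhere. Des and Acta1 were above 3 counts in all 18 libraries, with Acta1 at 2.18 to 215 CPM. Macrophage markers were present throughout: 19 of 25 were above 3 counts in all 18 libraries, and their summed level spanned 57.1-fold, from 85.5 to 4887 CPM. The EV libraries of the S6K1 series summed to 939 to 4442 CPM, the RAS libraries of WT cells to 957 to 4887 and those of KO cells to 317 to 1133, with replicate 3 the lowest in each group. For the S6K1/S6K2 series the sums were 220 to 1995 CPM (EV), 214 to 1316 (RAS, WT) and 85.5 to 316 (RAS, DKO), with replicate 1 the highest in each group. WT EV replicate 1 of the S6K1/S6K2 series stood apart from its group in several of the genes below, and log2 differences that rest on it are given with and without it. In such bulk samples, fewer cells of a type and less RNA per cell cannot be told apart.

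Per kilobase of exon, Cebpb was the highest of the 8 genes and Pparg the lowest. The medians over 18 libraries were 53.9 CPM per kilobase for Cebpb, 31.4 for Cebpd, 21.6 for Fabp4 and 9.96 for Cebpg. They were 4.61 for Cd36, 2.87 for Cebpa, 1.67 for Lpl and 1.01 for Pparg. The exon length used for Cebpd comes from an annotation that lists it with 2 exon blocks, and with the RefSeq span of 2260 bases its median was 16.4, below that of Fabp4. The spread over libraries differed far more than the order. Lpl spanned 38.7-fold and Cd36 39.1-fold between the lowest and the highest library, whereas Cebpg spanned 1.62-fold and Cebpb 2.38-fold. The ranges over libraries of each pair of neighbours in this order overlapped. Pparg rested on 14 to 65 counts per library, Cebpa on 42 to 254 and Cd36 in DKO cells on 17 to 62, and Lpl went down to 44. Low counts were not the same as low precision. For RAS in the S6K1/S6K2 series, standard errors of the log2 difference were largest for Lpl (0.91) and Cd36 (0.83), against 0.44 for Pparg and 0.38 for Cebpa.

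**Figure D1:**
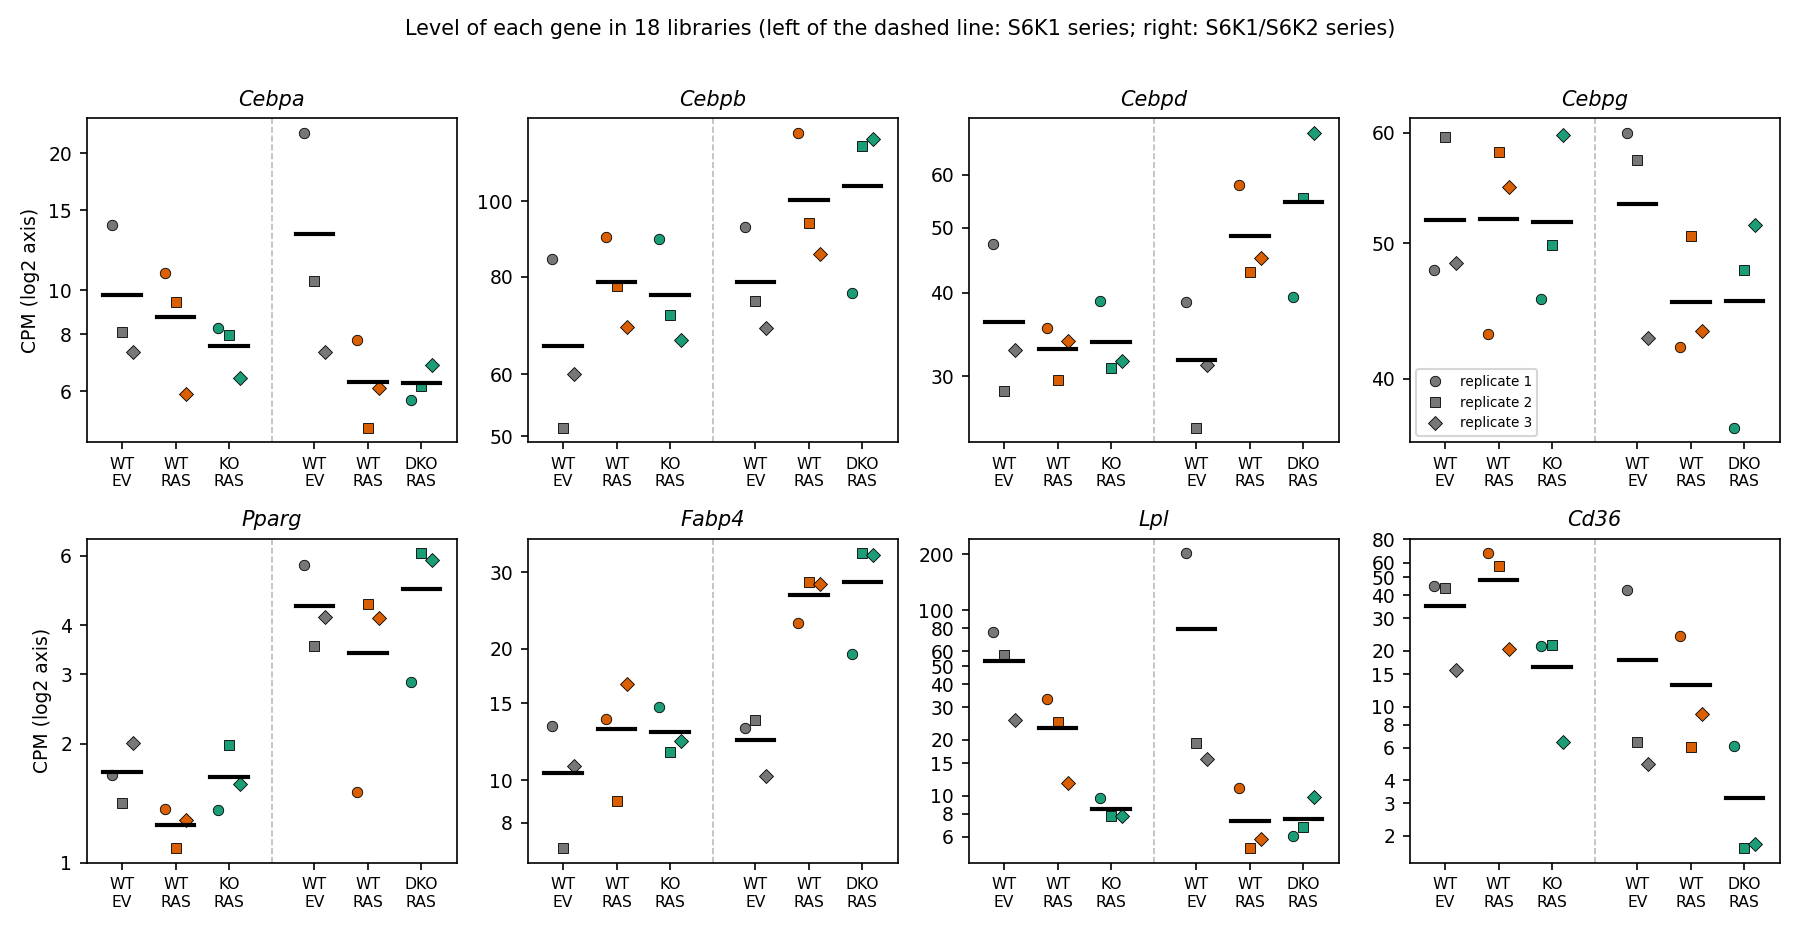
CPM of the 8 genes (log2 axis) in every library, by group. Symbols give the replicate number, horizontal lines the mean of 3 libraries, and the dashed line separates the S6K1 series (left) from the S6K1/S6K2 series (right). Fabp4 and Cebpd of all RAS libraries sit above all EV libraries right of the line, and Lpl means sit lower in RAS than in EV cells of both series, with WT EV replicate 1 of the S6K1/S6K2 series at 203 CPM.

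The first question was how the early C/EBP factors behaved when RAS was introduced. Cebpb (ENSMUSG00000056501.3, chr2:167688915-167690432 in GRCm38, a gene without introns) read 84.2, 51.3 and 60.1 CPM in the 3 WT EV libraries of the S6K1 series and 89.9, 77.8 and 69.0 in WT RAS. Within the S6K1/S6K2 series it read 92.6, 74.6 and 68.9 CPM in WT EV and 122, 93.8 and 85.5 in WT RAS. Every RAS library was above the EV library of the same number in both series, by 1.07- to 1.52-fold and by 1.24- to 1.32-fold, but the groups overlapped. The log2 difference was 0.27 (SE 0.20, adjusted p = 0.429) and 0.35 (SE 0.21, adjusted p = 0.230) in edgeR's quasi-likelihood test, adjusted over all genes tested. With the replicate number as a block, since same-numbered libraries deviated together, the S6K1-series difference was 0.29 (edgeR adjusted p = 0.0473). Cebpb codes for activating and inhibitory proteins through different start codons of one transcript, which gene counts cannot separate.

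Cebpd (ENSMUSG00000071637.5, chr16:15887286-15889545), whose span overlaps the gene Spidr, did not pass the test with RAS in either series. It read 47.3, 28.5 and 32.8 CPM in WT EV and 35.4, 29.6 and 33.9 in WT RAS of the S6K1 series, with full overlap (log2 difference -0.14, SE 0.19, edgeR adjusted p = 0.705). For the S6K1/S6K2 series the values were 38.7, 25.2 and 31.2 CPM in WT EV and 57.9, 42.9 and 45.1 in WT RAS. There all RAS libraries were above all EV libraries, as for 20.9% of tested genes in this direction, by 1.44- to 1.71-fold within numbers, yet the difference of 0.62 (SE 0.23) had an edgeR adjusted p of 0.0717. It passed the threshold in DESeq2 (adjusted p = 0.0463) and without WT EV replicate 1 (0.78, edgeR adjusted p = 0.0433). The difference of the RAS effects between series was 0.74 (95% interval 0.08 to 1.40, edgeR adjusted p = 0.361) and did not pass. A batch and the series it ran in cannot be told apart here.

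Cebpg (ENSMUSG00000056216.9, chr7:35046422-35056566) was the steadiest of the 8 genes. Its group means lay between 45.4 and 53.4 CPM, and its fitted differences between -0.23 and 0.00 on the log2 scale in the 4 comparisons. The 95% interval of the RAS effect in the S6K1 series ran from -0.36 to 0.36, which bounds a change at that confidence. Its locus lies 62727 bases from Cebpa on the same chromosome, and the annotated gene Gm45095 overlaps its span.

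Cebpa (ENSMUSG00000034957.10, chr7:35119293-35121928), the factor of late adipocyte differentiation, was low in all libraries. In the S6K1 series it read 13.9, 8.11 and 7.32 CPM in WT EV and 10.9, 9.41 and 5.94 in WT RAS, which overlapped. WT EV of the S6K1/S6K2 series read 22.1, 10.5 and 7.33 CPM and WT RAS 7.77, 4.99 and 6.11, lower within every number. The highest RAS library still exceeded the lowest EV library, and the fall of 1.08 on the log2 scale (SE 0.38) had an edgeR adjusted p of 0.0600. Without WT EV replicate 1 the difference was -0.50 (edgeR adjusted p = 0.219), and without WT EV replicate 3 it was -1.36 (edgeR adjusted p = 0.0147). DESeq2 gave -1.07 with an adjusted p of 0.0314.

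Pparg (ENSMUSG00000000440.12, chr6:115360879-115490404), whose start sites give 2 protein forms that gene counts cannot separate, was close to the lower end of what these libraries resolve. It read 1.67, 1.41 and 2.01 CPM in WT EV and 1.36, 1.09 and 1.28 in WT RAS of the S6K1 series. These groups did not overlap, a pattern that 15% of all tested genes showed in this direction and 15.9% in the other, and the difference of -0.44 (SE 0.29) had an edgeR adjusted p of 0.377. In the S6K1/S6K2 series it read 5.66, 3.53 and 4.19 CPM in WT EV and 1.51, 4.52 and 4.16 in WT RAS, where replicate 1 was the highest EV and the lowest RAS library (log2 difference -0.39, SE 0.44, edgeR adjusted p = 0.537). All 9 libraries of the S6K1 series were at or below 2.01 CPM, while 8 of 9 in the S6K1/S6K2 series were above it.

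Fabp4 rose with RAS in the S6K1/S6K2 series. The gene (ENSMUSG00000062515.3, chr3:10204342-10208616) read 13.2, 13.8 and 10.2 CPM in WT EV and 23.0, 28.5 and 28.2 in WT RAS of that series. The groups did not overlap, a pattern seen in 20.9% of tested genes in this direction, and the pairs of one number rose 1.75-, 2.07- and 2.76-fold. The log2 difference was 1.10 (SE 0.22, edgeR adjusted p = 0.00679) and passed the threshold in all 15 alternative fits, from 0.99 to 1.24. In the S6K1 series Fabp4 read 13.3, 6.99 and 10.8 CPM in WT EV and 13.8, 8.94 and 16.6 in WT RAS, higher within every number but overlapping (0.34, SE 0.28, edgeR adjusted p = 0.494). The difference between the series was 0.76 (95% interval -0.03 to 1.55, edgeR adjusted p = 0.407).

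Lpl had lower values with RAS in both series. The gene (ENSMUSG00000015568.16, chr8:68880555-68906932) read 76.1, 57.7 and 25.6 CPM in WT EV and 33.3, 24.9 and 11.7 in WT RAS of the S6K1 series. The 3 pairs gave nearly one ratio, 0.438, 0.431 and 0.457, although the groups overlapped because replicate 3 was low in both. Without pairing, the difference of -1.19 (SE 0.43) had an edgeR adjusted p of 0.105, and with the replicate block it was -1.18 (SE 0.19, edgeR adjusted p = 0.00123). It also passed in DESeq2 (adjusted p = 0.0390) and without WT EV replicate 3 (-1.52, edgeR adjusted p = 0.0332).

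In the S6K1/S6K2 series Lpl fell from 203, 19.3 and 15.8 CPM in WT EV to 11.0, 5.23 and 5.83 in WT RAS. The groups did not overlap, as for 21.7% of tested genes in this direction, and the ratios of the pairs were 0.0543, 0.271 and 0.369. The difference was -3.43 (SE 0.91, edgeR adjusted p = 0.0222), and its size rested on WT EV replicate 1, without which it was -1.26 (SE 0.34, edgeR adjusted p = 0.0267). The call was lost without WT RAS replicate 2 (-3.24, edgeR adjusted p = 0.0861) or replicate 3 (-3.28, edgeR adjusted p = 0.0808), and with the 6 compared libraries alone (edgeR adjusted p = 0.0533). DESeq2 gave no adjusted p for it. The difference of the RAS effects between series was -2.25 (edgeR adjusted p = 0.395) and became -0.09 without that EV library.

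Cd36 (ENSMUSG00000002944.15, chr5:17781690-17888959) varied more within groups than between EV and RAS. It read 45.0, 43.5 and 15.7 CPM in WT EV and 67.3, 57.9 and 20.5 in WT RAS of the S6K1 series, and 42.4, 6.44 and 4.89 against 24.0, 6.06 and 9.16 in the S6K1/S6K2 series. In the first the 3 pairs rose 1.49-, 1.33- and 1.30-fold, with a difference of 0.48 (SE 0.56, edgeR adjusted p = 0.643) that passed under the replicate block (0.46, SE 0.09, edgeR adjusted p = 0.00327). In the second the ratios were 0.564, 0.941 and 1.87 and the difference was -0.46 (SE 0.83, edgeR adjusted p = 0.715), which became 1.20 without WT EV replicate 1.

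In sum over the 8 genes and without the replicate block, RAS called none in the S6K1 series. There 13.2% of 14036 tested genes were called (7.15% higher, 6.09% lower). RAS called 2 of the 8 in the S6K1/S6K2 series (Fabp4 higher and Lpl lower). There 26.3% of 13881 were called (13.5% higher, 12.7% lower). With the block, 2 of the 8 were called higher (Cebpb and Cd36) and 1 lower (Lpl) in the S6K1 series, beside 5085 of 14036 genes. The median log2 difference of the 8 was -0.07 and -0.31, beside 0.00 and -0.02 over all tested genes. These shares do not set the 8 genes apart from the rest. For none of the 8 did the difference between the series pass the threshold. Without the block, no gene of 14483 passed that test in edgeR, while 1819 had an unadjusted p under 0.05.

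**Figure D2:**
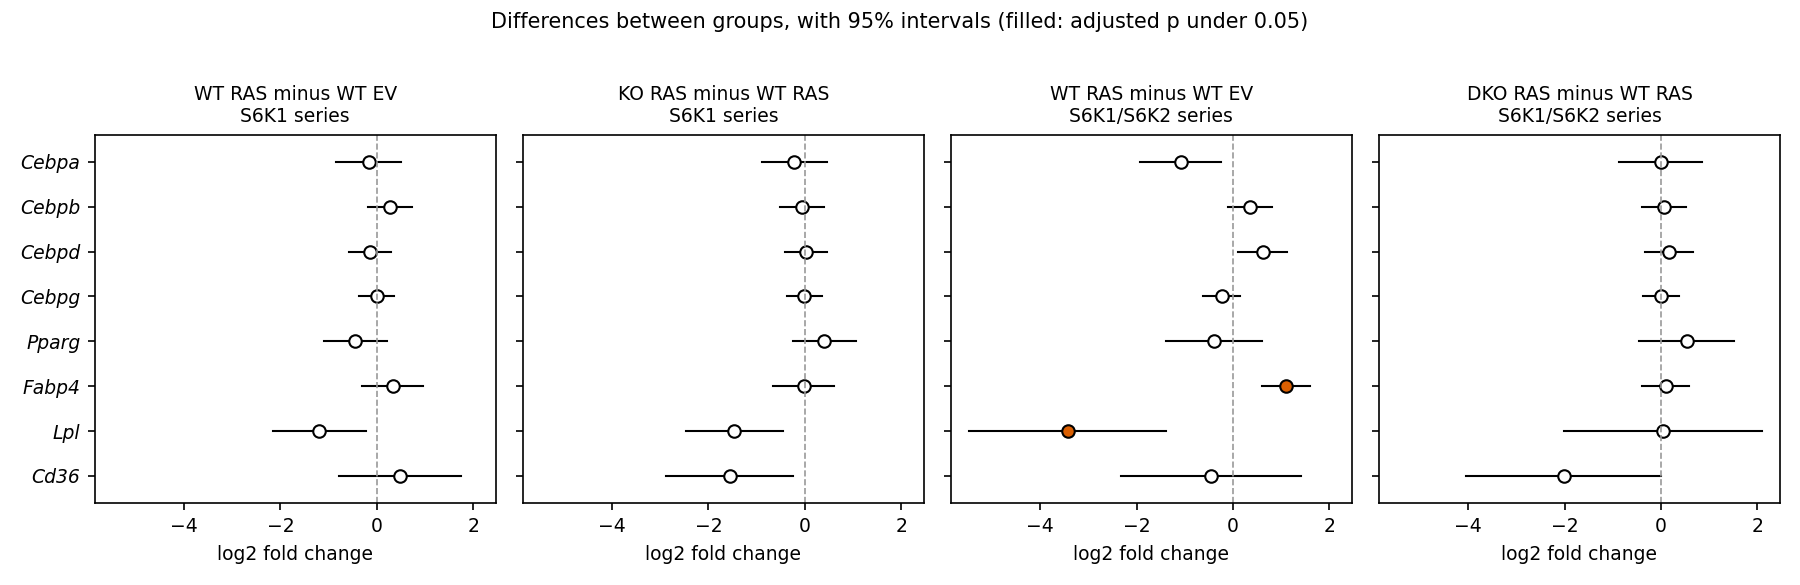
Log2 fold changes (x axis) of the 8 genes in the 4 comparisons, as points with 95% intervals from edgeR's quasi-likelihood fit over 9 libraries of a series. Filled points have an adjusted p under 0.05. Only Fabp4 (1.10) and Lpl (-3.43) in WT RAS against WT EV of the S6K1/S6K2 series are filled, and the widest intervals are those of Lpl and Cd36 in that series.

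The second question was whether loss of S6K1, or of both kinases, altered these levels in RAS cells. The early C/EBP genes did not pass in either series, and their intervals were narrow. Cebpb read 89.4, 71.6 and 66.4 CPM in KO RAS, within the range of the WT RAS libraries apart from replicate 3, with a log2 difference of -0.06 (95% interval -0.51 to 0.39, edgeR adjusted p = 0.997). Cebpd read 38.9, 30.8 and 31.6 CPM in KO RAS (0.03, 95% interval -0.40 to 0.47). In DKO RAS cells Cebpb read 76.3, 118 and 120 CPM and Cebpd 39.4, 55.4 and 69.2, both overlapping the WT RAS libraries. Their differences were 0.06 (95% interval -0.40 to 0.52) and 0.17 (95% interval -0.33 to 0.67), and a change of 1 on the log2 scale lies outside all 4 intervals.

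Cebpa read 8.27, 7.96 and 6.40 CPM in KO RAS and 5.74, 6.18 and 6.85 in DKO RAS, with differences of -0.21 (95% interval -0.89 to 0.47) and -0.01 (95% interval -0.86 to 0.85). Pparg read 1.36, 1.99 and 1.58 CPM in KO RAS and 2.87, 6.07 and 5.86 in DKO RAS. Its differences of 0.40 (95% interval -0.25 to 1.05) and 0.54 (95% interval -0.45 to 1.53) were not distinguishable from 0 at these counts. Fabp4 read 14.7, 11.6 and 12.3 CPM in KO RAS and 19.5, 33.1 and 32.8 in DKO RAS, so that the higher level seen in WT RAS cells of the S6K1/S6K2 series was also present in the DKO RAS cells (0.10, 95% interval -0.39 to 0.58).

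Lpl and Cd36 had the most negative differences of the 8 genes in KO cells. Lpl read 9.72, 7.81 and 7.82 CPM in KO RAS, below every WT RAS library, a separation seen in 4.17% of tested genes in this direction and 3.85% in the other. The difference was -1.46 (SE 0.45, edgeR adjusted p = 0.587), or -1.37 with the block (SE 0.22, edgeR adjusted p = 0.00629). Cd36 read 21.3, 21.5 and 6.40 CPM in KO RAS, or 0.317, 0.372 and 0.313 of the same-numbered WT RAS library. That difference was -1.56 (SE 0.58, edgeR adjusted p = 0.599), or -1.57 with the block (SE 0.10, edgeR adjusted p = 1.82e-05). The unpaired edgeR test called 1 gene of 14036 in this comparison (0.00712%), 963 genes had an unadjusted p under 0.05, and the block called 583.

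In DKO RAS cells Lpl read 6.04, 6.78 and 9.82 CPM, inside the WT RAS range (0.04, 95% interval -2.01 to 2.09). Cd36 read 6.14, 1.72 and 1.80 CPM there, with replicates 2 and 3 the lowest of the 18 libraries. These were 0.256, 0.284 and 0.197 of the same-numbered WT RAS library. The groups overlapped in that DKO replicate 1 exceeded WT RAS replicate 2, and the difference of -2.02 (SE 0.91) had an edgeR adjusted p of 1.00 and was -1.25 without WT RAS replicate 1. Leaving out each library in turn gave Cd36 differences from -2.88 to -1.25. Of 13881 genes, 3 were called in this DKO comparison (0.0216%, with 0.0072% higher and 0.0144% lower). The genes called lower were the kinase genes Rps6kb1 and Rps6kb2 themselves. An unadjusted p under 0.05 was found for 179 genes, and 3.03% were separated upwards and 3.05% downwards. For none of the 8 genes did the difference in the effect of kinase loss between the series pass the threshold. In that test 1 gene of 14483 (0.0069%) was called, and it was among Rps6kb1, Rps6kb2 and Hras. The intervals were wide for some of the 8. The Lpl difference of 1.54 had a 95% interval from -0.80 to 3.89, and that of Cd36 (-0.41) from -2.86 to 2.04.

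Cd36 varied with the macrophage markers over the libraries, and Lpl did so in part. In KO RAS against WT RAS all 24 tested macrophage markers had lower values (median log2 difference -2.22, none called in edgeR without the block). In DKO RAS all 23 had lower values (median -1.95, none called in that fit). Over the 18 libraries, Cd36 amounted to 1.01% to 2.92% of the summed macrophage markers, a 2.88-fold range, while its own level ranged 39.1-fold. The share of Lpl ranged 17.9-fold, beside 38.7-fold for its level. Pearson's r of log2 Cd36 with the log2 sum was 0.98 (Spearman's rho 0.97), and 0.97 after the group means were removed. The libraries share series and cell preparations, so these values describe the set and carry no p. Lpl had an r of 0.69 with the sum (0.80 with group means removed), and Cebpa 0.60 (0.80), whereas Cebpb had -0.30 (0.40), Cebpd -0.32 (0.32) and Cebpg 0.15 (-0.23), each with another sign once group means were removed. Fabp4 had -0.65 (-0.34) and Pparg -0.73 (-0.40). Relative to the sum, Cd36 of the S6K1 series was 1.38%, 1.32% and 2.14% in RAS-transduced WT cells against 1.88%, 2.48% and 2.02% in KO cells. In the S6K1/S6K2 series it was 1.82%, 2.83% and 2.84% in RAS-transduced WT cells against 1.94%, 2.01% and 1.57% in DKO cells, lower in 2 of 3 numbers. For Lpl the same shares were 0.682%, 0.567% and 1.22% (RAS, WT), 0.858%, 0.900% and 2.47% (RAS, KO) and 1.71%, 1.66% and 2.73% (EV, WT). Lpl was lower in each RAS library of the S6K1 series than in the same-numbered EV library, while the macrophage sum was higher in each, from 4442 to 4887 CPM in replicate 1 and from 939 to 957 CPM in replicate 3. In DKO cells Lpl was 1.91%, 7.93% and 8.55% of the sum against 0.836%, 2.44% and 1.81% in WT RAS cells, with its level within the WT RAS range and the sum lower in every number. The part of macrophage RNA in the lower Cd36 of KO and DKO cells, and in the lower Lpl of KO cells, was not tested.

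**Figure D3:**
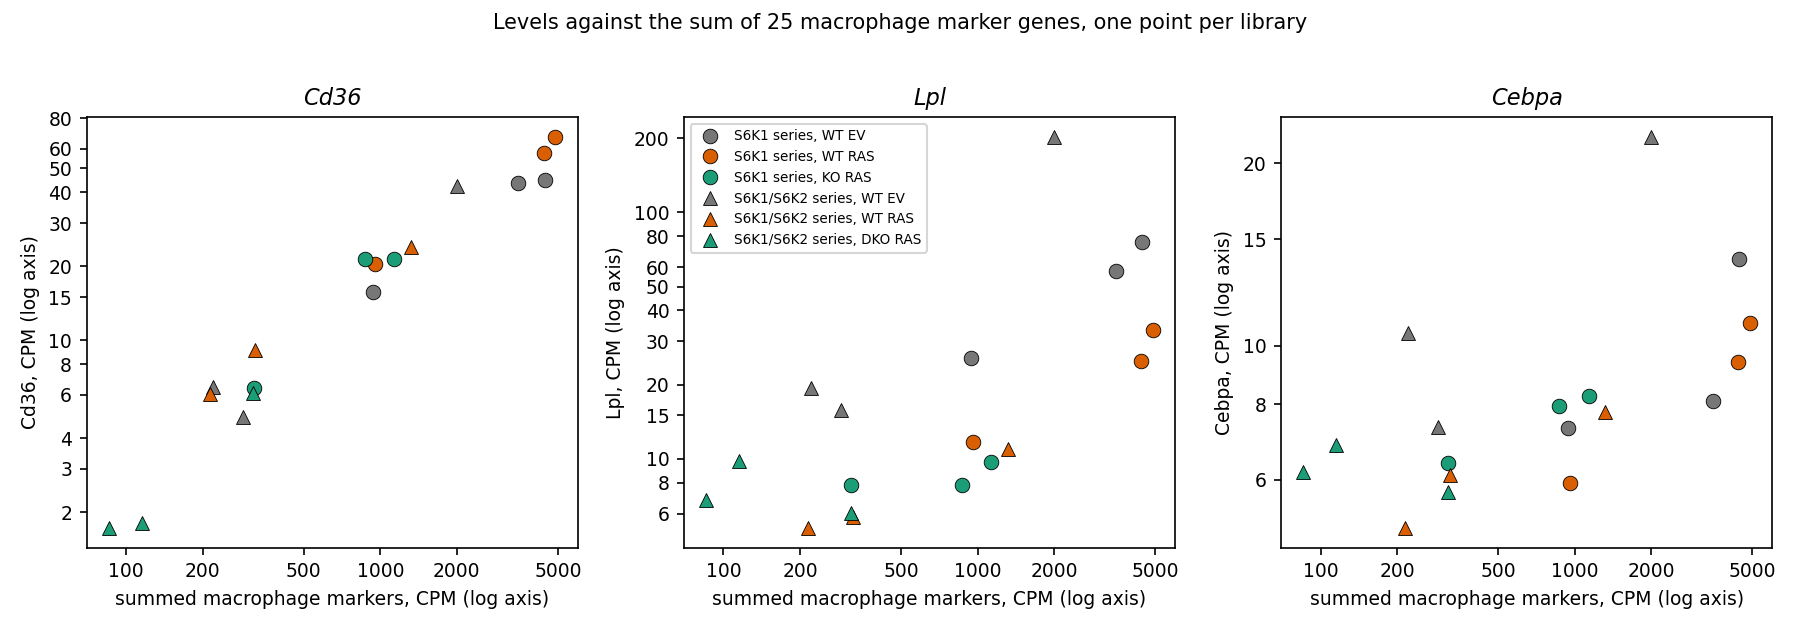
CPM of Cd36, Lpl and Cebpa (y axes, log scale) against the summed CPM of 25 macrophage marker genes (x axes, log scale), one point per library, with circles for the S6K1 series and triangles for the S6K1/S6K2 series. Cd36 follows the sum over its whole range of 85.5 to 4887 CPM, whereas WT EV libraries (grey) of Lpl lie above RAS libraries with like sums.

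Genes with the most similar profile over the 18 libraries were taken by Pearson's r of log2 CPM among 9830 genes with a mean of at least 100 counts. For Cd36 they were the macrophage genes Lyz2 (0.985), Cd84 (0.981) and Fcgr3 (0.981). For Lpl they were Id2 (0.954), Snx8 (0.940) and Lipa (0.934), and for Cebpa Mettl1 (0.927), Raly (0.926) and Tapbp (0.913). The nearest gene to Cebpd was Cebpb itself (0.832), followed by Rcan1, and then Fabp4 (0.797). Among the 28 pairs of the 8 genes, Cebpa with Lpl (0.892) and Cebpb with Cebpd (0.832) were the most alike, and both stayed so with group means removed (0.918 and 0.870). WT EV replicate 1 of the S6K1/S6K2 series held the highest Cebpa (22.1 CPM) and Lpl (203 CPM) of the 18 libraries. No correlation is given without that library. Cebpb and Cebpd also went with Fabp4 (0.772 and 0.797), and less once group means were removed (0.533 and 0.575). Pparg was nearest to Zrsr1 (0.908), Fabp4 to Gabpb1 (0.925) and Cebpg to Gpt2 (0.870). The libraries share series and depth, and these values carry no p.

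The circuit's partners were described with 4 lists of further genes. Among 40 adipogenic regulators, 35 were tested in the RAS comparison of the S6K1 series, of which 1 rose, 5 fell and 29 did not pass, beside 7.15% higher and 6.09% lower among all tested genes. Of 36 tested in the S6K1/S6K2 series, 4 rose, 10 fell and 22 did not pass, beside 13.5% and 12.7%. Ebf1, an early B-cell factor that acts upstream of Pparg and Cebpa, fell in both, from 45.8 ± 4.05 to 18.6 ± 4.95 CPM and from 97.2 ± 39.4 to 14.0 ± 1.81 CPM (SD, n = 3; log2 difference -1.30 and -2.80, edgeR adjusted p = 0.00247 and 0.000392). Dlk1, the preadipocyte inhibitor Pref-1, fell in the S6K1 series (-1.55), a call lost with all 18 libraries in the fit (-1.53, edgeR adjusted p = 0.284). Its fall in the S6K1/S6K2 series (-3.55) was a call lost under the replicate block (-3.08, edgeR adjusted p = 0.0886), with the 6 compared libraries alone, without WT EV replicate 1 (-1.31) and without any one of the WT RAS replicates. Dbp, a circadian PAR bZIP factor, fell in both (-1.54 and -1.64), and Id2, an inhibitor of basic helix-loop-helix factors, fell in the S6K1/S6K2 series (-2.59, or -1.40 without WT EV replicate 1). The S6K1-series call of Dbp was lost without WT RAS replicate 1 or 2 and that of Id2 without WT RAS replicate 2 or 3. Klf5, which acts downstream of C/EBPβ and C/EBPδ in early adipogenesis, rose by 1.20 and 1.51 (edgeR adjusted p = 0.0459 and 0.0339), calls that were lost in 5 of 6 and 4 of 6 leave-one-out fits. The S6K1-series call was also lost with all 18 libraries in the fit, and the other with the 6 compared libraries alone. Gata3, which restrains adipogenesis, rose by 1.02, and Trib1, which targets C/EBPα for degradation, by 0.85 in the S6K1/S6K2 series, calls lost in 4 and 5 of 6 leave-one-out fits. The calls of Gata3 and Trib1 were also lost without WT EV and WT RAS replicate 1 together. The median over the list was -0.24 and -0.50. Of 12 fibroblast markers, 4 fell and 1 rose in the S6K1 series, and 5 fell and 0 rose in the S6K1/S6K2 series. In each series 4 of the 12 had higher values with RAS, called or not. The sum of these markers ranged from 45178 to 59396 CPM in EV and 25799 to 36853 CPM in WT RAS libraries.

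Of 40 lipid droplet and adipocyte genes, 26 were tested in the S6K1 series, with 2 higher and 5 lower under RAS, and 27 in the S6K1/S6K2 series, with 7 higher and 4 lower. Over all tested genes 13.2% and 26.3% were called. Plin2, the coat protein of lipid droplets in most cells, rose from 182 ± 43.2 to 448 ± 81.2 CPM and from 104 ± 14.8 to 333 ± 54.0 CPM (log2 difference 1.30 and 1.68, edgeR adjusted p = 0.00633 and 0.00269). Acsl4, an acyl-CoA synthetase for arachidonate, rose by 0.98 and 2.12, and Pnpla2, the adipose triglyceride lipase, by 0.81 in the S6K1/S6K2 series. Plin4, a perilipin of adipocytes, fell in both on low counts (-2.26 and -2.40), and Elovl6, a fatty acid elongase, fell in the S6K1/S6K2 series (-0.83). Mgll, the monoglyceride lipase, and Cav1, the caveolar protein, fell in the S6K1 series (-2.18 and -0.89). G0s2, the inhibitor of adipose triglyceride lipase, fell in the S6K1/S6K2 series (-2.29), from 2.11 ± 0.992 to 0.419 ± 0.270 CPM, where the lowest RAS library, at 0.108 CPM, was under 3 counts. The Plin4 call was lost without WT EV replicate 3 or WT RAS replicate 1 or 2 of the S6K1 series and without WT RAS replicate 3 of the other, the Cav1 call without WT RAS replicate 2, and the G0s2 call without WT EV replicate 2 or any one WT RAS replicate. With the 6 compared libraries alone, the S6K1-series Plin4 call was lost too. Without WT EV and WT RAS replicate 1 together, the S6K1/S6K2-series calls of Plin4 and G0s2 were lost. The list's median was -0.01 and 0.11.

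Of 28 fatty acid uptake and lipoprotein lipase partner genes, 23 were tested in both series, with 3 higher and 3 lower, then 4 higher and 2 lower, so that 6 were called in each, beside 13.2% and 26.3% of all tested genes. Lipg, endothelial lipase and a relative of LPL, rose from 22.9 ± 7.82 to 129 ± 45.0 CPM and from 8.19 ± 5.01 to 77.8 ± 16.2 CPM (log2 difference 2.48 and 3.25, edgeR adjusted p = 0.00518 and 0.00271), opposite in sign to Lpl. Angptl4, a secreted inhibitor of LPL, rose by 2.15 in the S6K1 series (edgeR adjusted p = 0.00152). Olr1, the oxidised LDL receptor, rose by 1.95 and 2.70, and Scarb1, the HDL receptor, by 1.05 in the S6K1/S6K2 series. Slc27a3, of the fatty acid transport protein family, fell in both (-1.36 and -1.82). The secreted proteins Angptl2 and Thbs1 fell in the S6K1 series (-1.14 and -1.03), and Thbs2 in the S6K1/S6K2 series (-0.88). The Thbs1 call was lost with all 18 libraries in the fit (edgeR adjusted p = 0.0990). Calls lost on leaving out 1 library were Slc27a3 in the S6K1 series (WT EV replicate 3, WT RAS replicate 2 or 3), Olr1 in the S6K1/S6K2 series (WT EV replicate 1 or 2, WT RAS replicate 1) and Thbs2 (WT EV replicate 1 or 3, WT RAS replicate 2 or 3). The Thbs2 call was also lost with the 6 compared libraries alone, and that of Olr1 without WT EV and WT RAS replicate 1 together. The median of the list was -0.15 and 0.16.

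Of 18 C/EBP-linked secreted and acute phase genes, 14 and 12 were tested, with 3 higher and 1 lower in the S6K1 series and 4 higher and 2 lower in the S6K1/S6K2 series, beside 13.2% and 26.3% of all tested genes called. Ptges and Ptgs2, the enzymes of prostaglandin E2 synthesis, rose by 3.37 and 1.68, then by 2.51 and 4.04. Ccl2, the monocyte chemoattractant, rose in both (2.22 and 1.96), while Cxcl5, a neutrophil chemokine, fell in the S6K1 series (-1.39) and the growth factor Igf1 in the S6K1/S6K2 series (-1.26, or -0.77 without WT EV replicate 1). The S6K1-series call of Cxcl5 was lost without any one library and that of Ccl2 without WT EV replicate 2 or 3 or WT RAS replicate 1 or 2, and the Igf1 call without WT RAS replicate 2. The Cxcl5 call was also lost with DESeq2 size factors, upper-quartile scaling, at least 10 counts in every library, or all 18 libraries in the fit. The S6K1-series Ccl2 call was also lost with the 6 compared libraries alone. The list's median was -0.48 and -0.67, opposite in sign to these largest members. Of the genes named from the 4 lists, 10 of 19 in the S6K1 series and 11 of 21 in the S6K1/S6K2 series kept their call in every alternative fit. Those kept in both series were Ebf1, Plin2, Acsl4, Lipg, Ptgs2 and Ptges. Without the replicate block, loss of S6K1 or of both kinases called no gene of the 4 lists in edgeR, with medians from -0.61 to 0.09. The block called 583 genes for KO, 506 of them lower, and its calls among the 4 lists are not given. For the KO and DKO comparisons, the macrophage marker values are given above.

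**Figure D4:**
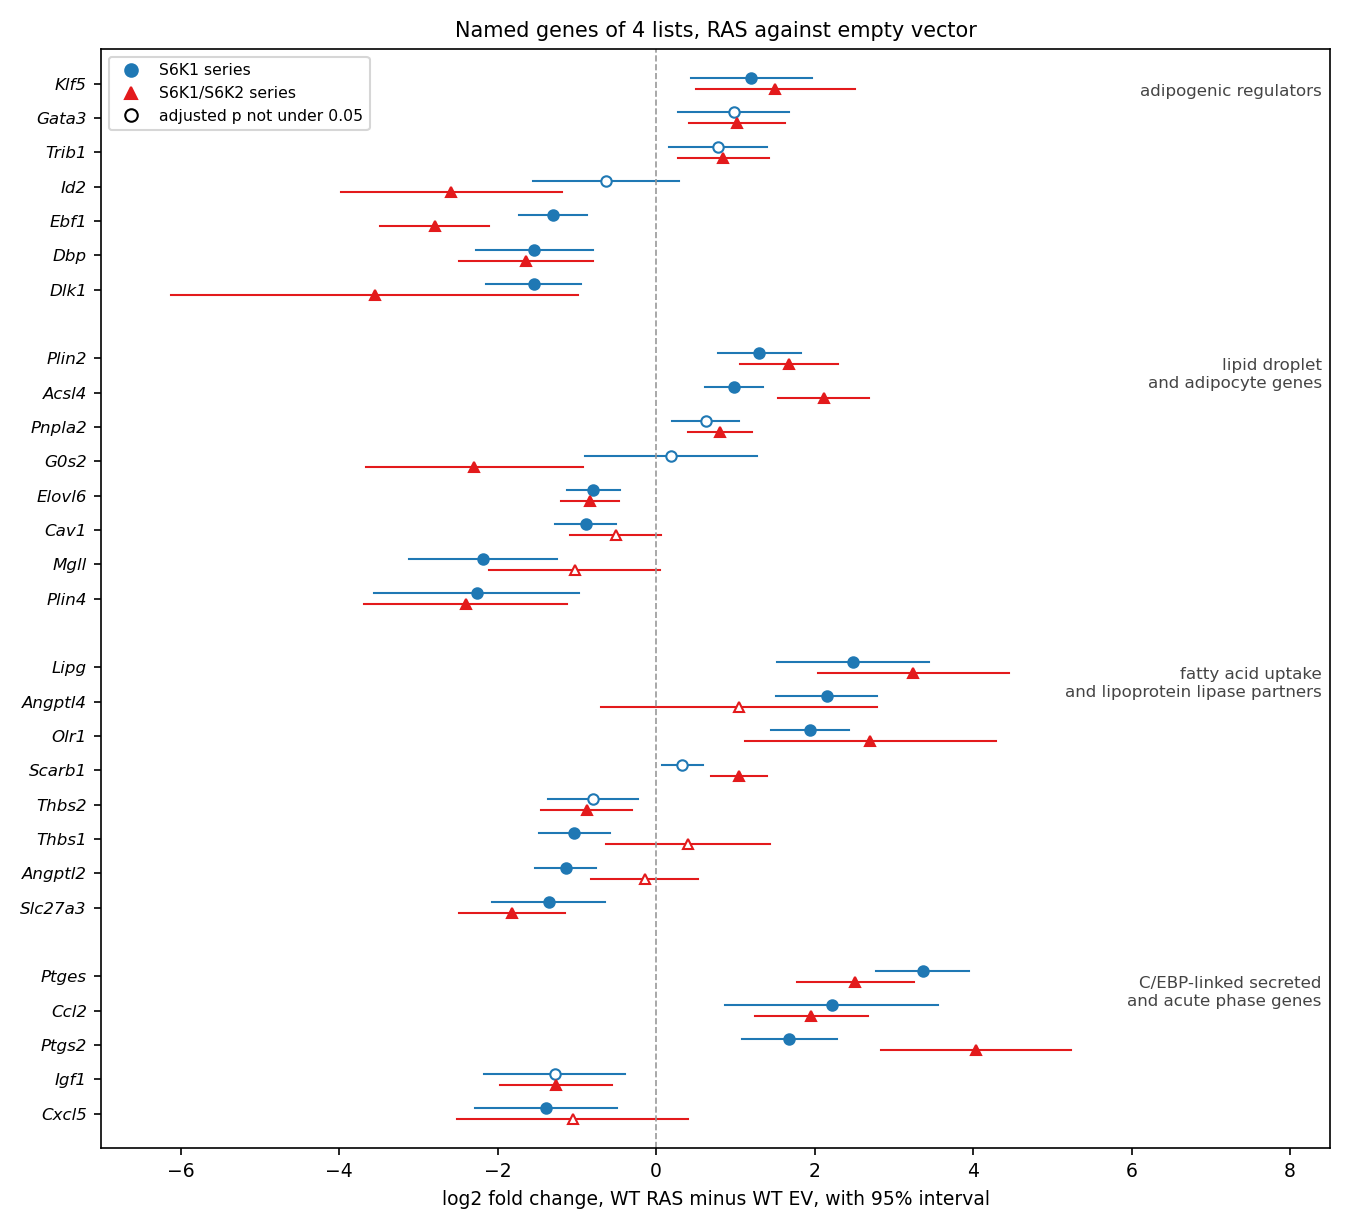
Log2 fold change of WT RAS against WT EV (x axis, with 95% intervals) for the genes named from the 4 lists, in the S6K1 series (circles) and the S6K1/S6K2 series (triangles). Open symbols did not pass an adjusted p of 0.05. Ebf1, Dbp and Dlk1 lie left of 0 and Plin2, Acsl4, Lipg, Olr1, Ptges, Ccl2 and Ptgs2 right of 0 with filled symbols in both series.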

How the data were processed

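Poly(A) RNA of 18 MEF libraries was sequenced, and the authors deposited raw counts per gene in a single table, 1 column per library, all of which matched a sample (0 columns without one). The submitters' processing notes name CASAVA, STAR 2.7.1a, DESeq2 1.28.1 and mm10, whereas the study's methods describe CASAVA, TopHat with mm9 and HTSeq. The aligner and annotation behind the counts are therefore not settled, and positions were taken by identifier or symbol from RefSeq on GRCm38. Symbols were found for 32589 of 55401 identifiers, holding 99.1% of counts, and 25336 identifiers had no count.

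Each series was fitted on its 9 libraries with edgeR 4.0.16 (R 4.3.3, limma 3.58.1), after filterByExpr with a minimum count of 10 and TMM scaling. The quasi-likelihood test was used with Benjamini-Hochberg adjustment over all genes tested and a threshold of 0.05. Standard errors were the log2 fold change divided by the square root of F, and intervals are 95%. The difference between series was fitted on 18 libraries. CPM were scaled with the same factors, computed within each series. Alternatives were DESeq2 1.42.0, other scalings and filters, the replicate block, other sets of libraries and leaving out each library. The fits were tested on simulated counts.

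Same-numbered libraries deviated together in both RAS comparisons (correlation of deviations 0.422 to 0.655 and 0.301 to 0.381) and in the KO comparison (0.373 to 0.672). Blocked values therefore stand beside the results of the 8 genes that they change. For the lists and markers, KO and DKO calls are given without the block only. The 18 pairs of replicates differed by a chi-square of at least 7.98 per degree of freedom, and none was counted as 1 sample.

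The genes named were the 8 genes, Rps6kb1, Rps6kb2 and Hras. From each of the 4 lists and each comparison, the genes called without overlap between groups were ranked by log2 fold change, and at most 3 from each end were added. For each of the 8 genes the 3 most correlated genes were named too. The genes and lists were chosen with earlier results of these data known.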

Additional observations from a re-analysis of the deposited data

How the results depend on the processing

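Pparg rested on as few as 14 counts a library and Cd36 in DKO cells on as few as 17, and each group held 3 libraries. Counts of calls are given for edgeR with the 9 libraries of a series unless another setting is named, and the cause of each change below was not tested. Fabp4 under RAS in the S6K1/S6K2 series was called in every fit run.

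The replicate block called 5085 genes and 3 of the 8 for RAS in the S6K1 series (1859 and 0 without it), 583 genes and 2 of the 8 for KO (1 and 0), and 58 genes for the difference of RAS effects (0). For DKO, where same-numbered libraries did not all deviate together (correlations -0.03 to 0.424), the block called 8 genes (3 without it). Under the block Cebpg was -0.0065 for RAS in the S6K1 series, Fabp4 0.0027 for KO, Cebpa 0.040 for DKO and Pparg -0.071 for the difference of RAS effects, each opposite in sign to the unblocked value. Beyond Lpl, Cd36 and Cebpb of the S6K1 series, it changed no call of the 8 genes.

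For RAS in the S6K1 series, DESeq2 and no filter each called 1 of the 8. These fits called 2386 and 2043 of 27614 genes with a count. For KO, DESeq2 called 96 genes, no filter 108, the 6 compared libraries 0 and all 18 libraries 4. For RAS in the S6K1/S6K2 series, no filter called 4 of the 8, all 18 libraries 4 and the 6 compared libraries 1 (2 in the report). Over all genes these fits called 3906 of 27277, 4259 of 14483 and 2732 of 13548. For DKO, DESeq2 called 10 genes, no filter 11 and all 18 libraries 7. No filter called 204 genes for the difference of RAS effects. Reversed values close to 0 were Cebpg with upper-quartile scaling (-0.0029 for RAS in the S6K1 series, -3.60e-05 for DKO), Cebpg for DKO with at least 10 counts in every library (-0.0054) or the 6 compared libraries (-0.0061), and Cebpa for DKO with no filter (0.0096). With pairs 2 and 3 alone, chosen after seeing the data, RAS in the S6K1/S6K2 series gave 0.16 for Pparg and 0.43 for Cd36.

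Leaving out 1 library at a time gave 1043 to 1818 genes and 0 to 1 of the 8 for RAS in the S6K1 series, 0 to 22 genes for KO, 2050 to 4199 genes and 1 to 3 of the 8 for RAS in the S6K1/S6K2 series, 1 to 2 genes for DKO and 0 to 290 for the difference of RAS effects. Ranges that crossed 0 were, for RAS in the S6K1 series, -0.35 to 0.17 (Cebpa), -0.28 to 0.10 (Cebpd) and -0.075 to 0.12 (Cebpg). For KO they were -0.20 to 0.046 (Cebpb), -0.089 to 0.10 (Cebpd), -0.13 to 0.073 (Cebpg) and -0.25 to 0.18 (Fabp4), and for RAS in the S6K1/S6K2 series -1.23 to 1.20 (Cd36). For DKO they were -0.15 to 0.17 (Cebpa), -0.052 to 0.24 (Cebpb), -0.038 to 0.36 (Cebpd), -0.10 to 0.13 (Cebpg), -0.031 to 0.31 (Fabp4) and -0.20 to 0.45 (Lpl). For the difference of RAS effects they were -0.17 to 0.21 (Cebpb), -0.21 to 0.40 (Pparg) and -1.71 to 0.70 (Cd36). For the difference of loss effects they were -0.039 to 0.34 (Cebpd), -0.061 to 0.15 (Cebpg), -0.20 to 0.42 (Pparg), -0.038 to 0.36 (Fabp4) and -1.29 to 0.35 (Cd36).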

Other observations

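Markers of other cell types that MEF cultures can hold were listed beside the 8 genes. Of 16 endothelial markers, 4 were never above 3 counts. For RAS, 3 rose and 2 fell among 10 tested in the S6K1 series, against 2 and 2 among 8 in the S6K1/S6K2 series. Over all tested genes, 7.15% rose and 6.09% fell in the first series, and 13.5% and 12.7% in the second. No endothelial marker was called in KO or DKO cells in edgeR without the block, where 0.00712% and 0.0216% of all tested genes were called. Of 10 muscle markers, 4 and 3 were tested, and the skeletal actin gene Acta1 alone was called, higher under RAS in both series (log2 difference 1.57 and 3.49). The muscle list summed to 8.28 to 233 CPM over the 18 libraries.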
